A study of Mus musculus with 36 samples.

Results

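Interferon response genes are the genes that a cell turns on when it senses interferon or foreign nucleic acid, and 42 of them were followed here in nephron progenitor cells (NPCs) of the mouse, in 36 RNA-seq libraries. The members are the rows of 3 tables of normalized counts whose Ensembl identifiers map to a fixed list of 42 symbols, out of 30125 genes with a row in at least 1 table. Of the 42, 40 had a row in the table of wild-type cultures, 42 in the table of the *Ctnnb1* experiments and 41 in the table of the Tcf/Lef experiment, and 33, 38 and 33 of them reached the mean of 10 normalized counts needed for testing. The list names 5 RNA and DNA sensors, 4 transcription factors, 4 IFIT genes, 5 OAS genes, 7 genes of the ISG15 system and related ubiquitin ligases, 6 interferon-inducible GTPases, 8 other antiviral effectors and 3 genes of antigen processing.

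In the interferon pathway, sensors such as the proteins of *Ddx58* (RIG-I) and *Ifih1* (MDA5) detect foreign RNA in the cytoplasm and, through kinases and IRF transcription factors, switch on interferon genes. Secreted interferon binds receptors whose JAK kinases act on transcription factors, and a complex that holds STAT2 and IRF9 then binds a short promoter element, the interferon-stimulated response element (ISRE). The genes it activates include effectors that block viral translation, degrade RNA or tag proteins, and the sensors and transcription factors themselves, so that the list holds both ends of the loop. NPCs are the mesenchymal stem-like cells of the embryonic kidney that either self-renew or form nephrons, a choice that Wnt signaling through β-catenin controls.

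Primary NPCs pooled from embryonic mouse kidneys were grown in nephron progenitor expansion medium (NPEM) with the GSK3β inhibitor CHIR99021 (CHIR), which stabilizes β-catenin. Wild-type cells, which were not transfected, were cultured without CHIR, in low CHIR (1.25 µM) or in high CHIR (5 µM), with 3 libraries each. Cells of Cas9-eGFP mice, which express Cas9 and GFP in all cells, were transfected with guides to *Ctnnb1* (the gene of β-catenin) or with a control guide to GFP (2 libraries of each at each dose), or with guides to *Tcf7l1*, *Tcf7l2*, *Tcf7* and *Lef1* (the Tcf/Lef guides, 2 libraries in low and 3 in high CHIR) or again the GFP guide (3 at each dose). Cells with the genotype B-catenin_c_c, homozygous for a conditional *Ctnnb1* allele, were labelled Cre-pos or Cre-neg (2 libraries of each at each dose). Cre-pos cells received Cre mRNA made in vitro, and the sequenced controls are described as reporter-positive too, so Cre-neg cells had mCherry mRNA. Whether another mRNA stood in for Cre in them is not given in the sources used here. The transfected cells were given mCherry mRNA with a lipid reagent, cultured in low CHIR for 24 h (48 h for the Tcf/Lef experiment), moved to low or high CHIR for 24 h, and sorted as mCherry+. The sort selects cells that took up mCherry mRNA, not cells shown to carry the edit. Cre mRNA and the loss of *Ctnnb1* come together in the Cre-pos libraries and cannot be told apart.

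Depth was 13651129 to 76071568 reads on genes in the wild-type libraries, 14537850 to 27838106 in the *Ctnnb1* experiments and 13089780 to 20152719 in the Tcf/Lef experiment, and no pair of replicates differed by as little as counting noise. The labels do not say that replicates were separate cultures, so p-values measure only the spread between these libraries. As a check of the labels, the *Ctnnb1* total fell with its guides by 1.02 on the log2 scale (adjusted p = 0.00313). With Cre its difference was -0.14 (adjusted p = 0.687), but a gene total cannot show the loss of part of a gene. *Lef1*, which β-catenin activates, fell with Cre by 1.97 (adjusted p = 0.00159) and with the *Ctnnb1* guides by 1.51 (adjusted p = 0.0218). With the Tcf/Lef guides in high CHIR, *Tcf7* fell by 1.64 (adjusted p = 0.0175), while the totals of *Lef1*, *Tcf7l1* and *Tcf7l2* did not pass the test, with differences of -2.12, 0.15 and -0.35 (adjusted p = 0.131, 0.778 and 0.513). These are RNA totals, whereas the study measured the proteins by staining after individual guides and reports their removal, in part for Tcf7. Summed markers of NPCs were 658 to 2061 RPM (reads on a gene relative to all reads on genes, scaled to a fixed total) in the transfected libraries and 212 to 1961 in the wild-type ones, where high CHIR had the lowest values. In bulk RNA, fewer cells of a type and less RNA per cell cannot be told apart.

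Promoters of several members are shown first, since the ISRE is the promoter element of the pathway. Of the 42 members, 33 had a promoter in the RefSeq table used here (GRCm38.p6), and the 300 bases from 250 before to 50 after the start were searched for the ISRE core GAAANNGAAA on both strands, overlaps allowed. It was found in 16 of 33 members (48.5%), against 3.99% of the 27025 genes in that table. The 25 matches lay between 222 bases before and 32 bases after the start, with a median of 72 bases before it. The Tcf/Lef core CTTTGAT was in none of the 33 windows and in 4.29% of all genes. Only this spelling was searched, and with 33 windows none is close to what that share gives. A lack of Tcf/Lef motifs is thus not shown. The sequences below are the 150 bases before the start, 5′ to 3′ on the strand of the gene, with the ISRE core in capitals where it is present. The first 5 genes hold it and the last 2, shown for contrast, do not, although all 7 rose with Cre mRNA.
Isg15: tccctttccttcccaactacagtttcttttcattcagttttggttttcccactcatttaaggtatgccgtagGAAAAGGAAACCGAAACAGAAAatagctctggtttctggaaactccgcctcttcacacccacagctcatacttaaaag
Ifit1: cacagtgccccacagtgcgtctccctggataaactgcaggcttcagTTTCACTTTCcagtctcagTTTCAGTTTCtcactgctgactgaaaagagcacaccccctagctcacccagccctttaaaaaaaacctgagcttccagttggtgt
Oas1a: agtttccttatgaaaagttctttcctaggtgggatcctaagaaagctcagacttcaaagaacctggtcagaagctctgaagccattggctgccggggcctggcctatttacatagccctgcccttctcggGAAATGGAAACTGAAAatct
Gbp3: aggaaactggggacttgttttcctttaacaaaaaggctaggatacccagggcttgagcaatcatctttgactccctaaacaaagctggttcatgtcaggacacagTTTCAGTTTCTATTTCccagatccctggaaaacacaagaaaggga
Irgm1: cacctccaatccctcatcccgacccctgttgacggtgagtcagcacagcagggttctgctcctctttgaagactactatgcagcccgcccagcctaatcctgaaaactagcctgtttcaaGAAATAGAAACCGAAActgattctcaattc
Oasl2: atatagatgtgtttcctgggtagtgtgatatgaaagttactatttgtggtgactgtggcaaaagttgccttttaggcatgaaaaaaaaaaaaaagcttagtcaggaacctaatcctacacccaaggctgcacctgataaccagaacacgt
Tap1: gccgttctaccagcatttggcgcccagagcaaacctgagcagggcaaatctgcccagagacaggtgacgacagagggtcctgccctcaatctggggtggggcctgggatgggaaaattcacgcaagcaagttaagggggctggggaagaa
These windows are *Isg15* chr4:156200819-156200968 (minus strand), *Ifit1* chr19:34640739-34640888 (plus strand), *Oas1a* chr5:120907526-120907675 (minus strand), *Gbp3* chr3:142559894-142560043 (plus strand), *Irgm1* chr11:48871421-48871570 (minus strand), *Oasl2* chr5:114896784-114896933 (plus strand) and *Tap1* chr17:34187406-34187555 (plus strand). In *Isg15* 3 overlapping matches began 78, 72 and 66 bases before the start, and in *Oas1a* and *Irgm1* pairs of overlapping matches began 20 and 14, and 30 and 24 bases before it. In *Ifit1* the matches stood apart, at 104 and 85 bases, on the opposite strand, and those of *Gbp3* overlapped on that strand at 45 and 39 bases. A match of letters is a description of the window, not a bound site.

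The comparison of Cre-pos with Cre-neg libraries asks what Cre-mediated removal of β-catenin changes in NPCs. The interferon response genes rose together. Averaged over low and high CHIR (4 libraries a side), 31 of the 38 members tested were called higher and none lower, where called means a Benjamini-Hochberg adjusted p below 0.05 over all genes tested and a difference of at least 0.5 in mean log2(normalized count + 1). Of all 16780 genes tested, 5.71% were called higher. The median log2 difference was 2.12 over the members, from 0.64 for *Stat2* to 4.91 for *Ifit1*, and -0.02 over all genes. All 38 members had a positive difference. *Mx2* and *Rsad2* reached the mean of 10 only through the Cre-pos libraries (means of 7.51 and 7.94 in the other 12), and without them 30 of 36 members were called, with a median of 2.12. At both doses, every Cre-pos library stood above every Cre-neg library for 34 of 38 members, against 8.05% of all genes tested, and the 4 members with an overlap were *Cmpk2*, *Dhx58*, *Ifit2* and *Iigp1*. Values below are normalized counts, replicate 1 before replicate 2, and differences are on the log2(value + 1) scale, on which low genes appear to change less than they do.

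**Figure D1:**
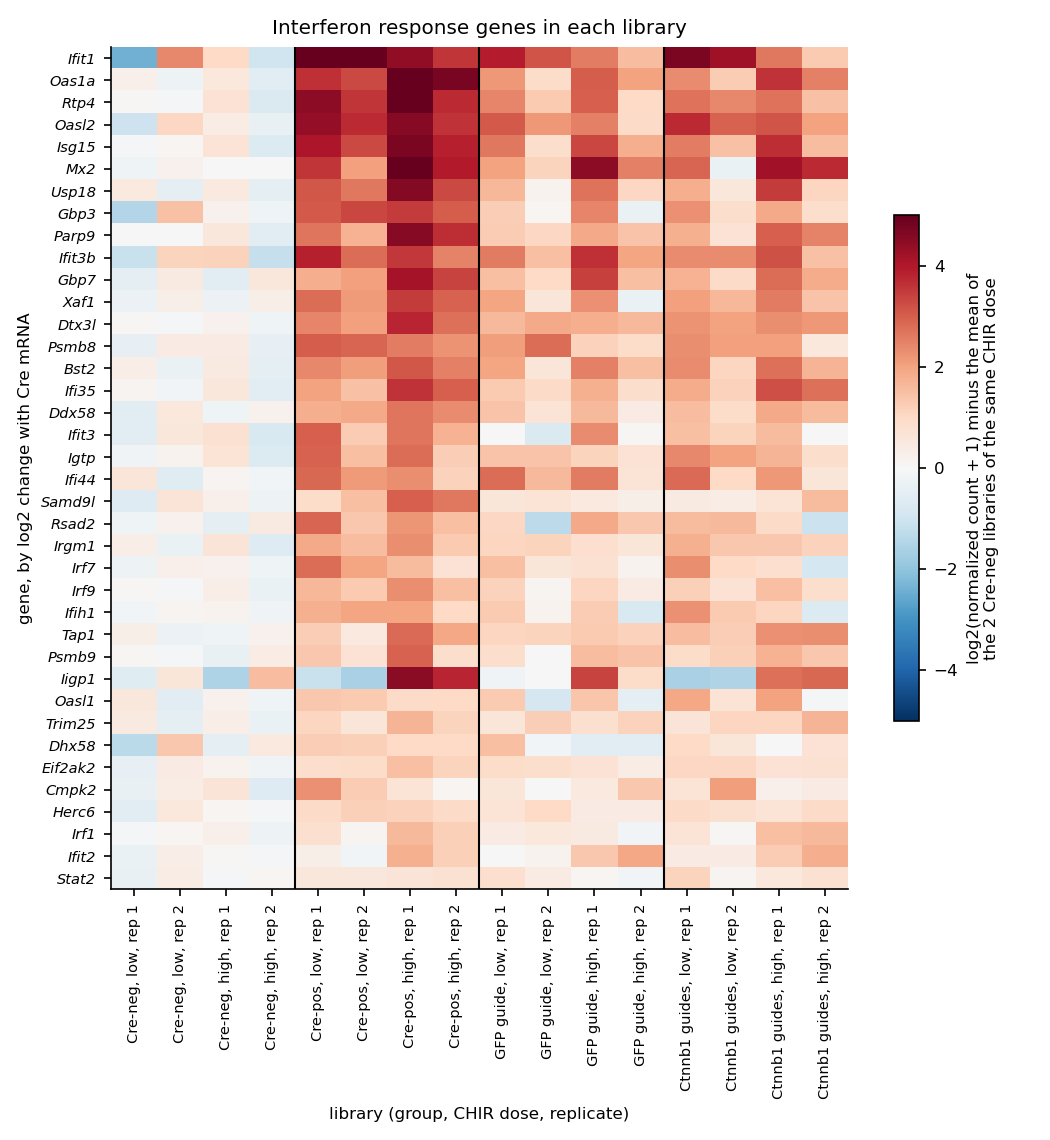
Heat map of the 38 tested members (rows, ordered by their log2 change with Cre mRNA) in the 16 libraries of the *Ctnnb1* experiments (columns). Color gives log2(normalized count + 1) minus the mean of the 2 Cre-neg libraries of the same CHIR dose, red for higher and blue for lower. The 4 Cre-pos columns are red for nearly all rows, and the GFP guide and *Ctnnb1* guide columns lie between them and the Cre-neg columns for most rows.

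All 4 IFIT genes, whose proteins bind viral RNA and block its translation, rose with Cre mRNA (median log2 difference 2.67). *Ifit1* counts were 0 and 27.5 in the Cre-neg and 374 and 237 in the Cre-pos libraries of low CHIR, and 47.9 and 11.4 against 529 and 295 in high CHIR. That was the largest fitted difference of any member, 4.91 (95% interval 3.19 to 6.62, adjusted p = 0.00153). Its rank is uncertain, since it rests in part on the Cre-neg library with 0 counts. With a library left out the *Ifit1* difference was 3.70 to 6.11, and that of *Oas1a* 4.10 to 4.64. *Ifit3b* counts were 2.22 and 13.7 in the Cre-neg and 100.4 and 46.3 in the Cre-pos libraries of low CHIR, and 13.8 and 2.07 against 77.7 and 36.4 in high CHIR. Neither gene overlapped between the groups at either dose. The log2 difference of *Ifit3b* was 3.17 (95% interval 1.76 to 4.58, adjusted p = 0.00752), that of *Ifit3* was 2.17 (adjusted p = 0.0346) and that of *Ifit2* was 0.79 (adjusted p = 0.0316). *Ifit3* and *Ifit3b* are near copies, and 18.5% and 16% of the 150-base stretches of their transcripts were identical between them, so reads may be split between these 2 genes. *Ifit2* was the exception within the family: in low CHIR its Cre-pos counts of 340.5 and 251 lay within the Cre-neg counts of 219.9 and 342, and only in high CHIR did the groups stand apart, at 422 and 278 against 126 and 118. The 4 genes lie within one cluster on chromosome 19 (GRCm38), from 34550694 to 34650009.

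Of the OAS family, whose enzymes make a second messenger that activates RNase L upon binding RNA, 2 of 3 tested members rose. *Oas1a* counts were 14.4 and 10.1 in the Cre-neg and 162 and 129 in the Cre-pos libraries of low CHIR, and 5.52 and 2.07 against 240.3 and 120.2 in high CHIR. *Oasl2* counts were 8.88 and 41.2 in the Cre-neg and 434 and 270.4 in the Cre-pos libraries of low CHIR, and 31.3 and 18.7 against 589.7 and 309.6 in high CHIR. For both genes the lowest Cre-pos value was above the highest Cre-neg value at either dose. *Oas1a* rose by 4.37 (95% interval 3.41 to 5.32, adjusted p = 4.00e-05) and *Oasl2*, which encodes an OAS-like protein with ubiquitin-like domains, by 4.08 (95% interval 3.02 to 5.13, adjusted p = 0.000146). *Oas1a* shares 32.4% of its 150-base stretches with its neighbour *Oas1g*, so its counts are uncertain in size. The third tested member, *Oasl1*, differed by 1.16 (adjusted p = 0.281) and was not called. *Oas2* and *Oas3* were below the mean of 10 needed for testing. *Oas2* counts were 0 and 0.916 in Cre-neg and 24.8 and 27 in Cre-pos libraries in low CHIR, and 0 in both Cre-neg against 33.3 and 21.9 in Cre-pos libraries in high CHIR, where Cre-pos was at least 9.39-fold higher than a floor of 3 reads per library. Over both doses 96 reads in Cre-pos libraries stood against 1 read in Cre-neg libraries, a depth-scaled ratio of 109 with an exact 95% counting interval of 19.1 to 4354. *Oas3* stayed at or below 2.43 normalized counts in all 8 of these libraries.

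All 6 tested members of the ISG15 system and its ubiquitin ligase neighbours rose (median 2.97). *Isg15* encodes the ubiquitin-like protein that is joined to other proteins during the response, and *Usp18* the protease that removes it and dampens receptor signaling. *Isg15* counts were 23.3 and 27.5 in the Cre-neg and 435 and 256 in the Cre-pos libraries of low CHIR, and 34.1 and 12.4 against 568 and 318 in high CHIR. *Usp18* counts were 55.5 and 28.4 in the Cre-neg and 346 and 254 in the Cre-pos libraries of low CHIR, and 25.8 and 12.4 against 461 and 187 in high CHIR. Both genes were higher in each Cre-pos library than in any Cre-neg library of the same dose. *Isg15* rose by 3.98 (95% interval 2.81 to 5.16, adjusted p = 0.000436) and *Usp18* by 3.41 (95% interval 2.17 to 4.66, adjusted p = 0.00212). *Parp9* counts were 28.9 and 28.4 in the Cre-neg and 188 and 99.1 in the Cre-pos libraries of low CHIR, and 14.7 and 6.22 against 250.4 and 137 in high CHIR. *Parp9*, an ADP-ribosyltransferase relative that works with the E3 ligase of *Dtx3l*, rose by 3.17 (95% interval 2.41 to 3.94, adjusted p = 8.87e-05). *Dtx3l* counts were 32.2 and 30.2 in the Cre-neg and 175 and 131 in the Cre-pos libraries of low CHIR, and 23 and 16.6 against 285 and 137 in high CHIR. The *Dtx3l* difference was 2.76 (95% interval 2.22 to 3.30, adjusted p = 1.66e-05). *Parp9* and *Dtx3l* start head to head on chromosome 16 and their exons overlap in part, and whether reads were counted by strand is not given in the sources used here, so a share of their reads cannot be assigned to either. The ligase genes *Trim25* and *Herc6* rose less, by 1.13 (adjusted p = 0.0145) and 1.07 (adjusted p = 0.0117). *Parp14* was too low to test, at 0 and 5.49 in Cre-neg against 21.7 and 5.15 in Cre-pos libraries of low CHIR, and 3.68 and 1.04 against 11.1 and 8.50 in high CHIR.

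Interferon-inducible GTPases act on the membranes of intracellular microbes or on viral capsids, and 5 of 6 were called higher, *Mx2* among them (median 2.49). *Mx2* counts were 1.11 and 1.83 in the Cre-neg and 27.9 and 9.01 in the Cre-pos libraries of low CHIR, and 0 and 0 against 35.3 and 14.6 in high CHIR. The fitted difference of *Mx2*, a dynamin-like antiviral GTPase, was 3.69 (95% interval 2.15 to 5.22, adjusted p = 0.00528), and its call carries little weight, since it was tested only because of its Cre-pos counts. The Cre-neg libraries held 3 *Mx2* reads in all against 81 in the Cre-pos libraries, a ratio of 30.7 with an exact 95% counting interval of 10.1 to 152, so the fitted value rests on very few reads in the controls. *Gbp3* counts were 2.22 and 23.8 in the Cre-neg and 73.5 and 88.8 in the Cre-pos libraries of low CHIR, and 10.1 and 7.26 against 108 and 76.5 in high CHIR. *Gbp3*, a guanylate-binding protein gene, rose by 3.23 (95% interval 1.76 to 4.69, adjusted p = 0.00876), and its neighbour *Gbp7* by 2.85 (adjusted p = 0.00115). The immunity-related GTPase genes *Igtp* and *Irgm1* rose by 2.12 (adjusted p = 0.00491) and 1.78 (adjusted p = 0.00102). *Irgm1* had the highest mean count of the members, with 664 and 411 in Cre-neg against 1967 and 1537 in Cre-pos libraries of low CHIR, and 989 and 400.5 against 3136 and 1581 in high CHIR. The sixth, *Iigp1*, differed by 1.39 (adjusted p = 0.180) over both doses and is described with the dose comparison.

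Among 8 other antiviral effectors, 6 rose (median 2.32). *Rtp4* counts were 20.0 and 18.3 in the Cre-neg and 450.2 and 241 in the Cre-pos libraries of low CHIR, and 26.7 and 9.34 against 554 and 221 in high CHIR. *Rtp4* encodes a chaperone-like protein that acts against flaviviruses, and it rose by 4.21 (95% interval 3.13 to 5.28, adjusted p = 0.000131). *Bst2* counts were 178 and 109.9 in the Cre-neg and 751 and 591 in the Cre-pos libraries of low CHIR, and 171 and 92.3 against 1105 and 724 in high CHIR. *Bst2* (tetherin), which holds budding virus at the cell surface, rose by 2.53 (adjusted p = 0.00103). Per kilobase of exon it was the highest member, with mean levels of 7.29 RPKM (reads per kilobase of exon, scaled to depth) in Cre-neg and 44.6 in Cre-pos libraries, followed in Cre-pos libraries by *Isg15* (26.5) and *Irgm1* (18). *Xaf1* counts were 23.3 and 35.7 in the Cre-neg and 206 and 130.0 in the Cre-pos libraries of low CHIR, and 14.7 and 22.8 against 219 and 149 in high CHIR. *Xaf1*, linked to apoptosis, rose by 2.85 (95% interval 1.75 to 3.94, adjusted p = 0.00299), and *Ifi35*, *Ifi44* and *Samd9l* by 2.51, 2.12 and 2.01 (adjusted p = 0.000130, 0.0275 and 0.00231). *Rsad2* (viperin) and *Cmpk2*, which lie head to head on chromosome 12, were not called, with differences of 2.0 (adjusted p = 0.0643) and 1.08 (adjusted p = 0.167). *Rsad2* was low, at 1.11 and 1.83 in Cre-neg against 17.6 and 5.15 in Cre-pos libraries of low CHIR, and 4.60 and 9.34 against 34.3 and 20.6 in high CHIR.

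Median log2 differences were 1.39 over the sensors, 1.32 over the transcription factors and 1.62 over the genes of antigen processing, and the differences between roles were not tested. Among 4 tested sensors, *Ddx58* rose by 2.19 (adjusted p = 0.000573) and *Eif2ak2* (PKR), the kinase that halts translation upon binding RNA, by 1.10 (adjusted p = 0.00127). *Ddx58* counts were 53.3 and 113 in Cre-neg against 277 and 289.7 in Cre-pos libraries of low CHIR, and 44.2 and 59.1 against 329 and 268 in high CHIR. *Ifih1* and *Dhx58* (LGP2) were not called, at 1.67 (adjusted p = 0.0536) and 1.10 (adjusted p = 0.207), and *Zbp1* held at most 3.10 normalized counts in any library of the table. Of the transcription factors, *Irf7*, the main driver of a sustained interferon response, rose by 1.77 (adjusted p = 0.0182), *Irf9* by 1.70 (adjusted p = 0.00154) and *Irf1* by 0.93 (adjusted p = 0.0187), while *Stat2* differed by 0.64 (adjusted p = 0.0868). All 3 genes of antigen processing rose: the immunoproteasome subunit genes *Psmb8* and *Psmb9* by 2.68 (adjusted p = 0.00128) and 1.47 (adjusted p = 0.0488), and the peptide transporter gene *Tap1* by 1.62 (adjusted p = 0.000793). The replicate numbers were taken to pair the libraries within the Cre experiment. The replicate block, here and below, was 1 effect shared by the Cre and guide experiments. With the replicate number as a block 2 further members passed the test, *Ifih1* (adjusted p = 0.0111) and *Rsad2* (adjusted p = 0.0342), against 7.23% of all genes. *Rsad2* had entered the test only through its Cre-pos counts. Leaving out any 1 library left between 23 and 31 members called.

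**Figure D2:**
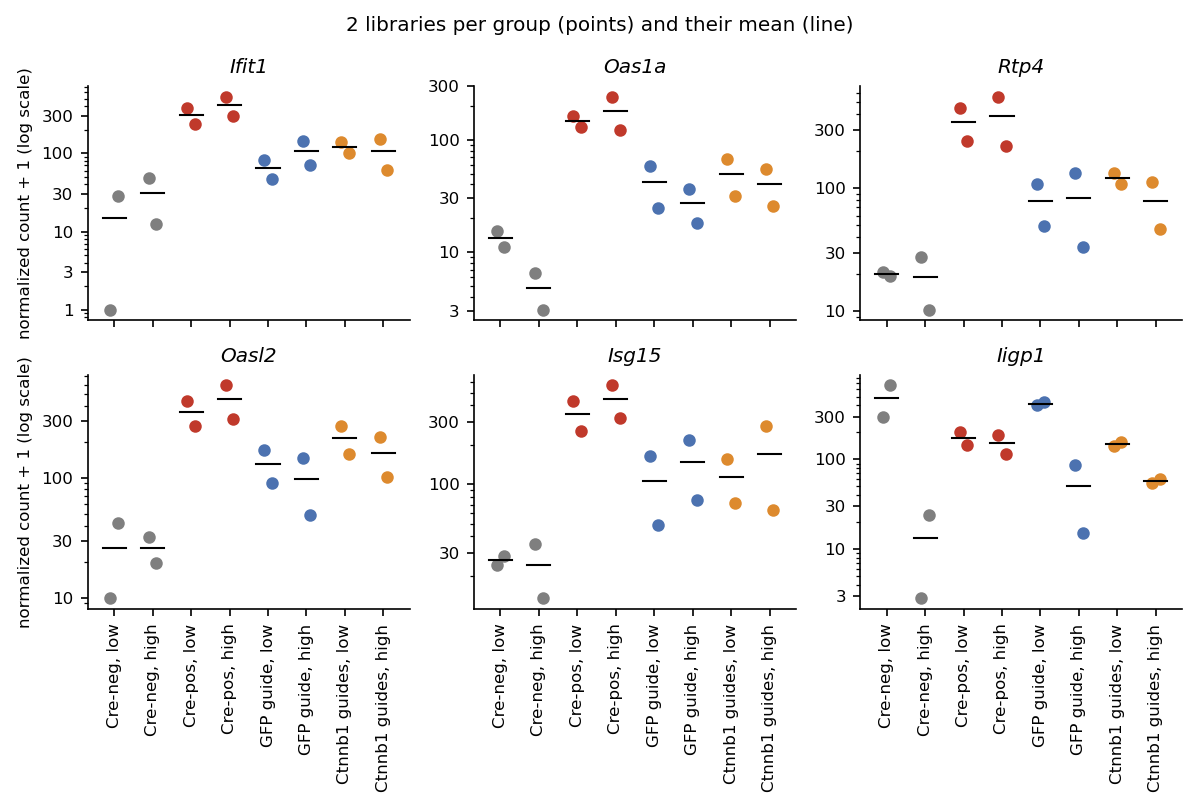
Normalized count + 1 (log scale) of the 5 members with the largest log2 change with Cre mRNA and of *Iigp1*, in the 8 groups of the *Ctnnb1* experiments. Points are the 2 libraries of a group and lines their mean. In the first 5 panels the Cre-pos points stand above the Cre-neg points of their dose, and in the *Iigp1* panel the Cre-neg points drop from low to high CHIR.

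Markers of some other cell types moved with the Cre comparison. Summed markers of ureteric epithelium were not higher in Cre-pos libraries. They were 14.1 to 20.9 RPM in Cre-neg against 13.4 to 20.2 in Cre-pos libraries of low CHIR. In high CHIR they were 35.2 to 35.6 against 18.7 to 20.5. Summed over 7 stromal markers, Cre-neg libraries held 183 to 479 RPM in low and 167 to 245 in high CHIR, and Cre-pos libraries 504 to 784 and 318 to 588, without overlap within a dose, although none of the 6 stromal markers tested was called (median log2 difference 0.84). Macrophage and blood markers summed to 2.14 to 10.3 and 3.20 to 3.80 in Cre-neg against 7.45 to 29.2 and 4.04 to 10.1 in Cre-pos libraries, with an overlap in low CHIR. In this list *Fcer1g* rose by 3.51 (adjusted p = 0.0137), and *Lyz2* was at 0 in all Cre-neg libraries and in Cre-pos libraries of high CHIR. Endothelial markers summed to 8.02 to 8.68 and 2.98 to 3.01 against 41.6 to 60.8 and 28.1 to 46.3. With the *Ctnnb1* guides this sum was 26.7 to 36.5 in low and 31.4 to 53.3 in high CHIR. With the GFP guide it was 5.25 to 7.91 and 3.53 to 7.58. The only endothelial marker high enough to test, *Emcn*, rose by 3.33 (adjusted p = 1.12e-05), and it also rose with the *Ctnnb1* guides, by 2.91 (adjusted p = 9.09e-05). In the *Ctnnb1* guide libraries, whose summed level of the interferon response genes was below that of the Cre-pos libraries, stromal markers summed to 611 to 1149.5 in low and 567 to 903 in high CHIR, ranges that overlap the Cre-pos ones. Whether the endothelial sum stands for cells or for *Emcn* alone was not tested, nor was the part of other cell types in the result.

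Each dose was also compared on its own. In low CHIR the median log2 difference of the members was 2.03, but 4 of 38 were called higher (0.179% of all genes): *Oasl2* by 4.07 (adjusted p = 0.0245), *Rtp4* by 4.04 (adjusted p = 0.0275), *Oas1a* by 3.48 (adjusted p = 0.0348) and *Dtx3l* by 2.24 (adjusted p = 0.0139). With the replicate number as a block, 16 were called, among them *Isg15*, *Ifit1*, *Irf7* and *Bst2*, against 0.578% of all genes. The count rested on single libraries: without Cre-neg replicate 1, Cre-pos replicate 1 or Cre-pos replicate 2 none was called, and without Cre-neg replicate 2, 9 were. At an unadjusted p below 0.05, counted here and below only with a difference of at least 0.5, 31 members were higher, against 4.62% of all genes.

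In high CHIR, 25 of 38 were called higher (5.90% of all genes), with a median of 2.39. The 6 largest fitted differences were 5.25 (adjusted p = 0.000124) for *Oas1a*, 4.57 (adjusted p = 0.0114) for *Mx2*, 4.38 (adjusted p = 0.00138) for *Rtp4*, 4.30 (adjusted p = 0.00295) for *Isg15*, 4.15 (adjusted p = 0.00704) for *Iigp1* and 4.13 (adjusted p = 0.000150) for *Parp9*. *Mx2*, counted among the 25, was tested only because of its Cre-pos counts, so its call carries little weight. It was at 0 in both Cre-neg libraries, so its fitted value depends on the pseudocount. Against a floor of 3 reads per library it was at least 8.50-fold higher. With *Mx2* at that bound the members' median was the same. Without Cre-pos replicate 1, 12 members were called, and without Cre-neg replicate 2, 15. The *Mx2* call was lost without either Cre-neg library, and the *Iigp1* call without replicate 1 of Cre-neg or of Cre-pos.

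One member differed in its Cre response between the doses. *Iigp1*, whose GTPase attacks the vacuoles of intracellular parasites, had counts of 294 and 667 in Cre-neg and 203 and 144 in Cre-pos libraries of low CHIR, and 1.84 and 22.8 against 185 and 114 in high CHIR. Cre-pos libraries were thus below the Cre-neg ones in low CHIR (-1.37, adjusted p = 0.615, not called) and above them in high CHIR (4.15, adjusted p = 0.00704). The difference between the 2 effects was 5.52 (95% interval 2.94 to 8.10, adjusted p = 0.0484), and it was the only one called among 38 members, against 0.745% of all genes called higher. With the replicate number as a block *Ifi35* passed too, by 1.55 (adjusted p = 0.0436), with 1.30% of all genes called higher. The *Iigp1* call was lost without any 1 of 7 of the 8 Cre libraries (all but Cre-neg replicate 2 in high CHIR), with a pseudocount of 0.5 and when only these groups were fitted. For the other 37 members an unchanged response between doses was not shown, as the intervals were wide (for *Isg15*, -1.72 to 2.97).

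Guides to *Ctnnb1* remove the same protein by another route, so the members were set beside those of the Cre comparison. None of the 38 members was called with the *Ctnnb1* guides against the GFP guide over both doses, against 2.23% of all genes called higher. The median log2 difference was 0.36 (all genes -0.00381), and 34 members had a positive difference. At an unadjusted p below 0.05, 3 members were higher, close to the 6.91% of all genes that were. On the recovered reads edgeR called none and DESeq2 1, *Ifi35* (3.83% of all genes). The largest difference was that of *Ifi35*, 1.01 (95% interval 0.37 to 1.65, adjusted p = 0.0919). *Isg15*, with counts of 162 and 47.6 in GFP guide and 154 and 70.7 in *Ctnnb1* guide libraries of low CHIR and of 217 and 74.7 against 277 and 62.5 in high CHIR, overlapped at both doses (0.15, 95% interval -1.03 to 1.32, adjusted p = 0.933). *Ctnnb1* guide libraries stood above GFP guide libraries at both doses for 3 of 38 members, against 8.71% of all genes tested, and the 3 were *Dtx3l*, *Irgm1* and *Tap1*. The replicate numbers were taken to pair the libraries within this experiment. With the replicate block that both experiments share, *Ifi35* was called, by 1.01 (adjusted p = 0.00421), with 3.75% of all genes called higher. With a separate block in each experiment *Irf1* and *Tap1* were called too (adjusted p = 0.0446 and 0.0486), with 5.49% of all genes.

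At single doses of CHIR, no member was called with the *Ctnnb1* guides in low CHIR (0.0358% of all genes called higher, median of the members 0.31, none with an unadjusted p below 0.05, and none by edgeR or DESeq2). In high CHIR 2 of 38 were called (3.44% of all genes, median 0.40). *Ifi35* counts were 114 and 60.3 with the GFP guide and 310.3 and 225 with the *Ctnnb1* guides, a difference of 1.66 (95% interval 0.76 to 2.57, adjusted p = 0.0382). *Irf1*, the transcription factor that interferon gamma induces early, had counts of 119.9 and 81.4 with the GFP guide and 255 and 276 with the *Ctnnb1* guides, a difference of 1.42 (95% interval 0.73 to 2.10, adjusted p = 0.0213). The groups did not overlap for either gene, and both calls were lost without GFP guide replicate 2, *Ctnnb1* guide replicate 1 or *Ctnnb1* guide replicate 2. *Ifi35* has 16.8% of its exons under an overlapping annotated gene, so part of its reads cannot be assigned. With the block, *Tap1* was called as well, by 1.06 (adjusted p = 0.0446), with 5.47% of all genes.

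**Figure D3:**
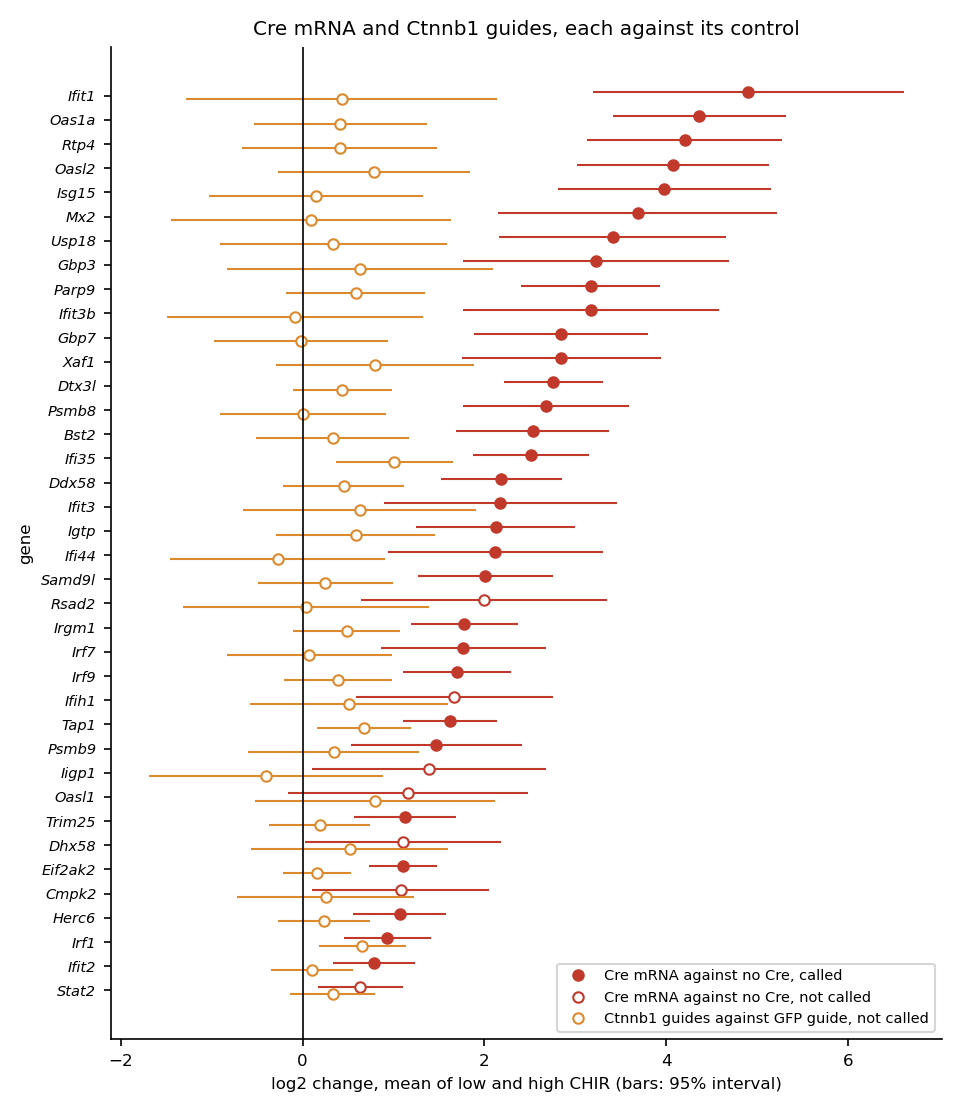
Log2 change of the 38 tested members (points) with its 95% interval (bars), averaged over low and high CHIR, for Cre mRNA against no Cre (red) and *Ctnnb1* guides against the GFP guide (orange). Filled points passed the test and open points did not. The red points lie between 0.64 and 4.91, and 31 of them are filled. The orange points lie between -0.40 and 1.01, and none is filled.

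The difference between the 2 routes was tested itself, as the Cre effect minus the *Ctnnb1* guide effect. All 38 members had a positive difference, with a median of 1.75 against -0.00361 for all genes, and 29 passed an unadjusted p below 0.05, against 2.34% of all genes, but none was called, and 0% of all 16780 genes were. EdgeR called none and DESeq2 9, against 0.197% of all genes. The smallest adjusted p was that of *Oas1a* and *Dtx3l*, with differences of 3.95 (95% interval 2.61 to 5.30, adjusted p = 0.111) and 2.32 (95% interval 1.55 to 3.09, adjusted p = 0.111). With the replicate number as a block 10 members were called, *Oas1a*, *Rtp4*, *Isg15*, *Usp18*, *Parp9*, *Dtx3l*, *Bst2*, *Ifi35*, *Ifi44* and *Irf9*, with *Rtp4* at 3.80 (adjusted p = 0.00176) and *Isg15* at 3.84 (adjusted p = 0.00270), against 0.0954% of all genes. With a separate block in each experiment 15 were called, against 0.226% of all genes. The separate block was added after seeing the data, and the shared one joins numbers across experiments that were not shown to pair. For some members the Cre effect thus exceeded the *Ctnnb1* guide effect with either block and in DESeq2. No member passed in limma without a block or in edgeR. Each effect is against its own control, and both guide groups received guides, so a response to guides as such is not measured. The GFP guide control itself lay above Cre-neg, by a median of 1.03 over the members. The part of that gap in this difference was not tested.

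The GFP guide libraries, a control that was transfected with guide and mCherry mRNA, lay above the Cre-neg libraries. The groups also differ in genotype, and genotype and treatment cannot be told apart here. They share their controls with the comparisons above: the Cre-neg libraries serve the Cre comparison and the GFP guide libraries the guide comparison. All 38 members had a positive difference (median 1.03), and 4 were called (1.06% of all genes). *Oasl2* counts were 169 and 89.8 with the GFP guide in low and 145 and 47.9 in high CHIR, between the Cre-neg and Cre-pos values given above, a difference from Cre-neg of 2.18 (95% interval 1.12 to 3.23, adjusted p = 0.0464). *Oas1a* counts with the GFP guide were 57.6 and 23.8 in low and 35.2 and 17.2 in high CHIR (2.03, 95% interval 1.08 to 2.98, adjusted p = 0.0391). *Dtx3l* had 98.4 and 120.1 in low and 71.9 and 62.2 in high CHIR (1.75, 95% interval 1.20 to 2.29, adjusted p = 0.00228), all above the Cre-neg range. *Tap1* had 267 and 274 with the GFP guide and 154 and 101 in Cre-neg libraries of low CHIR and 126 and 112 against 42.3 and 58.1 in high CHIR (1.18, 95% interval 0.66 to 1.69, adjusted p = 0.0257). Without GFP guide replicate 1 of low or of high CHIR 1 member was called, and without Cre-neg replicate 1 of low or replicate 2 of high CHIR 2 were.

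The groups of the *Ctnnb1* experiments can be ordered by the summed level of the members. In low CHIR it was 151 to 200.3 RPM in Cre-neg, 304 to 360.3 in GFP guide, 333 to 439 in *Ctnnb1* guide and 444 to 571 in Cre-pos libraries. In high CHIR the ranges were 108 to 153, 216 to 306, 318 to 404 and 428 to 733. Neighbouring ranges did not overlap except those of the GFP and *Ctnnb1* guides in low CHIR. Single members followed less evenly. GFP guide libraries stood above Cre-neg libraries at both doses for 21 of 38 members, against 5.24% of all genes tested. Cre-pos libraries stood above GFP guide libraries at both doses for 18 of 38 members, against 11.5% of all genes tested. The sums are led by a few members with many reads, such as *Irgm1*.

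**Figure D4:**
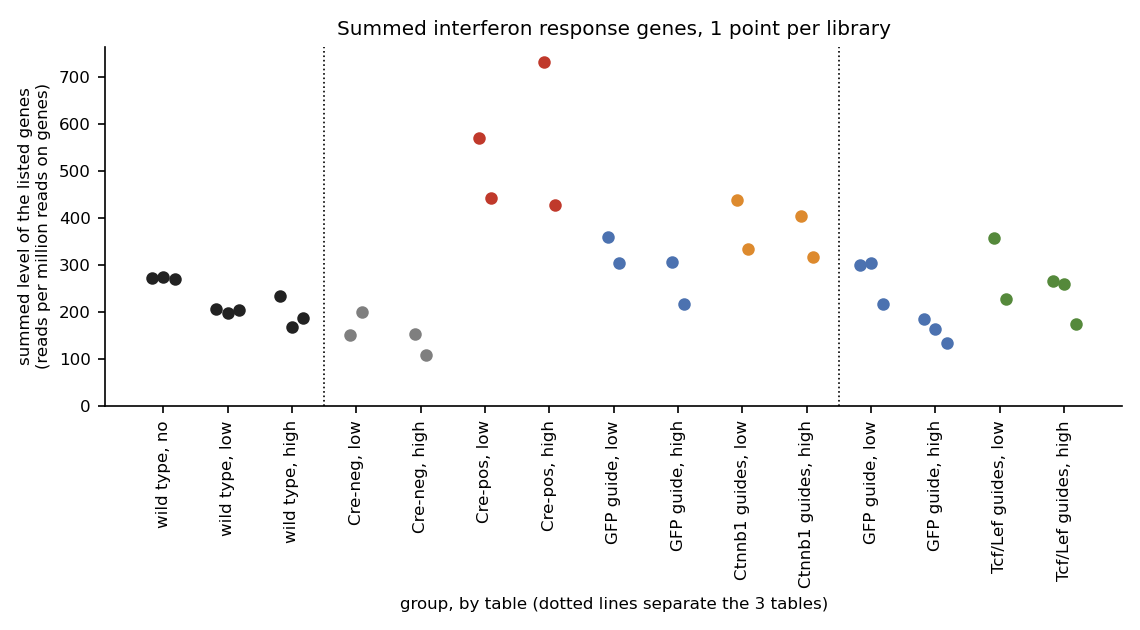
Summed level of the 42 members in each library (points), in RPM, by group, with dotted lines between the 3 tables. Cre-pos libraries reach 428 to 733 in high CHIR, Cre-neg libraries reach at most 200.3, and the wild-type libraries, which were not transfected, lie between 168 and 275.

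Removing the DNA-binding partners of β-catenin asks which responses run through Tcf/Lef factors. In low CHIR no member was called with the Tcf/Lef guides against the GFP guide (0.00630% of all genes called higher, 1 member with an unadjusted p below 0.05, none by edgeR or DESeq2), with a median of 0.20. In high CHIR 3 of 33 members were called higher and none lower, against 2.05% of all genes called higher, the median was 0.75 (all genes 0.000881), and 30 of 33 differences were positive. *Tap1* counts were 75, 55.6 and 55.3 with the GFP guide and 223, 218 and 245 with the Tcf/Lef guides, a rise of 1.88 (95% interval 1.47 to 2.29, adjusted p = 0.000557). *Ifi35* counts were 40.4, 34.4 and 25.5 against 99.1, 105 and 82.9, a rise of 1.51 (95% interval 0.95 to 2.06, adjusted p = 0.00873), and *Bst2* counts were 94, 72.8 and 53.2 against 176, 216 and 119.6, a rise of 1.20 (95% interval 0.58 to 1.82, adjusted p = 0.0478). For these 3 genes the groups did not overlap. The members that led the Cre comparison were not called: *Isg15* had 17.3, 8.09 and 10.6 against 48.7, 48.8 and 22.2 (1.63, adjusted p = 0.275) and *Oas1a* 32.1, 13.1 and 2.13 against 20.9, 24.9 and 6.75 (0.53, adjusted p = 0.859), with overlapping groups for *Oas1a*.

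In the Tcf/Lef table all same-numbered libraries deviated together, so the replicate numbers were taken to pair them. With the replicate number as a block 8 members were called in high CHIR, the 3 above and *Ifit1*, *Igtp*, *Iigp1*, *Irgm1* and *Parp9* (*Iigp1* at 1.66 (adjusted p = 0.0236) and *Ifit1* at 1.52 (adjusted p = 0.0368)), against 5.30% of all genes called higher. Without Tcf/Lef guide replicate 2 only *Tap1* was called, and the *Bst2* call was also lost without Tcf/Lef guide replicate 1 or GFP guide replicate 2 or 3. One GFP guide library of high CHIR, replicate 1, stood apart with 211 RPM of macrophage and blood markers, against 1.98 to 10.7 in the other 10. Its counts of several members were the highest of its group, for example 32.1 for *Oas1a* and 30.5 for *Ifih1*. Without it 3 members were still called, and its part in the values was not tested. Stromal markers in this table ranged from 13.8 to 819.8 RPM over the libraries.

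CHIR itself was compared in cells with no Cre and no guide to the pathway. In the GFP guide libraries of the Tcf/Lef experiment, 5 of 33 fell and 2 rose when CHIR was raised from low to high, against 7.96% and 6.98% of all genes, with a median of -0.60 (all genes 0.00359). *Iigp1* fell from 388, 365 and 385 to 21.4, 17.2 and 7.44 counts, -4.65 (95% interval -5.79 to -3.52, adjusted p = 0.000109). *Tap1* fell from 253, 219 and 269 to 75, 55.6 and 55.3 (-1.99, 95% interval -2.40 to -1.57, adjusted p = 3.54e-05). For both genes each low CHIR library was above each high CHIR library. *Ifi35* fell from 83.2, 133 and 101 to 40.4, 34.4 and 25.5 (-1.63, adjusted p = 0.00112), *Ifit1* from 25.7, 42.4 and 22.5 to 14.8, 6.07 and 4.25 (-1.84, adjusted p = 0.0259) and *Ifit2* from 346, 359 and 284 to 108, 130.5 and 163 (-1.31, adjusted p = 0.00536). The 2 that rose were *Cmpk2*, from 3.67, 16.8 and 16.4 to 43.7, 60.7 and 59.5 (2.28, adjusted p = 0.00935), and *Oasl1*, from 12.2, 1.97 and 0 to 20.6, 42.5 and 10.6 (2.71, adjusted p = 0.0428), whose groups overlapped. With the replicate number as a block *Igtp*, *Parp9*, *Psmb9*, *Rtp4* and *Trim25* were called lower as well, for 10 lower and 2 higher, with 11.6% of all genes called lower. Without the library rich in macrophage markers 6 were called, and the call of *Oasl1* was lost. The call of *Ifit1* was lost without low CHIR replicate 1 or 2 or high CHIR replicate 2 or 3, and that of *Oasl1* also without low CHIR replicate 2 or 3 or high CHIR replicate 2.

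In wild-type cells, which were not transfected, 1 member rose and 1 fell from low to high CHIR (5.33% and 5.05% of all genes, median 0.58). *Iigp1* had 361, 489.9 and 414 counts in low and 6.72, 8.38 and 2.80 in high CHIR, a difference of -6.01 (95% interval -6.94 to -5.08, adjusted p = 2.48e-05), the largest of any member in any comparison. *Oasl1*, which restrains translation of *Irf7*, rose from 1.31, 15.2 and 2.40 to 51.5, 46.1 and 29.9 (3.08, adjusted p = 0.0323), without overlap, and its call was lost without low CHIR replicate 1 or 3 or high CHIR replicate 1 or 2. It reached the mean of 10 only through the high CHIR libraries (a mean of 7.73 in the other 6). One library decided several values. High CHIR replicate 3 had 258 *Ifi35* and 287 *Ifit2* counts, against 71.7 and 54.4, and 68.3 and 36.3 in the other 2, and without it 6 members were called. Without low CHIR replicate 1 or 3 only 1 was.

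Without CHIR, 2 members were higher and 1 lower than in low CHIR (2.37% and 2.60% of all genes, median 0.66). *Ifi35* had 209, 293 and 270.3 counts without CHIR and 36.8, 39.9 and 52.7 in low CHIR (2.55, 95% interval 1.46 to 3.64, adjusted p = 0.0207), and *Irgm1* 1042, 1248 and 1203 without CHIR against 686, 730.1 and 661 in low CHIR (0.75, 95% interval 0.40 to 1.09, adjusted p = 0.0293), neither with an overlap. *Iigp1* was lower, at 80.3, 60.0 and 34.6 (-2.90, 95% interval -3.83 to -1.97, adjusted p = 0.00708), so that in wild-type cells it was highest in low CHIR, with the next lower level without CHIR and the lowest in high CHIR. The calls of *Ifi35* and *Irgm1* were lost without any 1 of 5 of the 6 libraries (all but the one without CHIR of replicate 1, the deepest), leaving 1 call. Stromal markers summed to 306 to 1393 RPM without CHIR, 488 to 797 in low and 156 to 519.5 in high CHIR, and their part in these values was not tested.

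**Figure D5:**
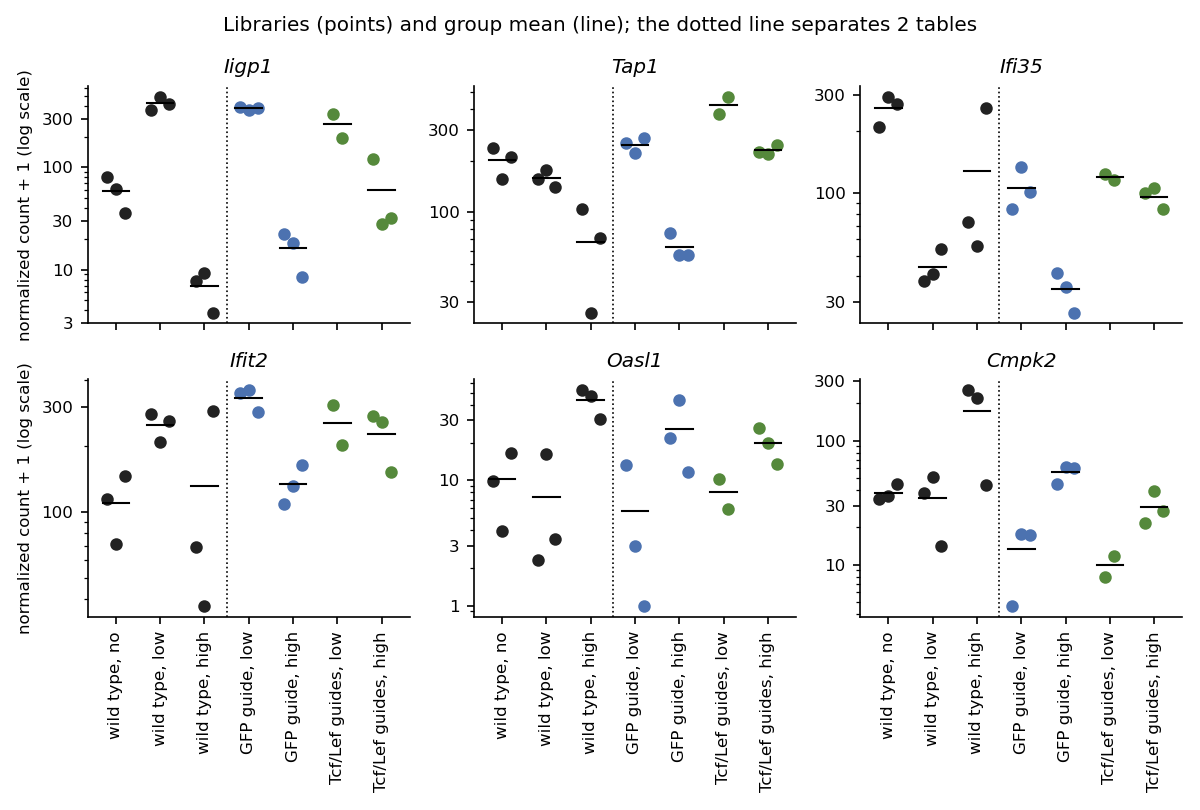
Normalized count + 1 (log scale) of 6 members that moved with CHIR or the Tcf/Lef guides, in wild-type cultures (black) and in the Tcf/Lef experiment (GFP guide blue, Tcf/Lef guides green). Points are libraries, short lines group means, and the dotted line separates 2 tables that were normalized separately. *Iigp1* is highest in low CHIR in both tables, and *Tap1* drops from low to high CHIR in each group.

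Other genes of the interferon pathway were counted by list in the Cre comparison, in which 5.71% of all genes were called higher. Of 11 interferon ligand genes only *Ifnk* had a row in the tables, with at most 11 reads in a library. The lowest total of any gene in a table was 10 reads, and the other 10 ligand genes were not analysed here. Of 15 tested genes of nucleic acid sensing and its adaptors 2 rose, the RNA receptor gene *Tlr3* by 2.06 (adjusted p = 0.0149) and the kinase gene *Ikbke* by 0.84 (adjusted p = 0.0230), with a median of 0.04. Both genes are also known to be induced by interferon, and the cause of their rise was not tested. Of 47 tested further interferon-stimulated genes 23 rose and none fell (median 1.44), led by *Oas1g* (4.96), *Tgtp2* (4.84), *Tgtp1* (4.68), *Slfn2* (3.99), *Ddx60* (3.55) and *Gbp2* (3.51). *Oas1g* shares stretches with the member *Oas1a*, so it is not a separate observation. Genes that reached the mean of 10 only through the Cre-pos libraries were not set aside in this count. Of 11 tested genes of class I antigen presentation 6 rose: *Tap2* by 1.87, *H2-T23* by 1.66, *H2-D1* by 1.52, *B2m* by 1.12, *Tapbp* by 1.09 and *Erap1* by 0.75. Of 8 tested feedback inhibitors *Tnfaip3* rose, by 0.97, and of 7 tested NF-kB and inflammatory targets none was called (median 0.50). With the *Ctnnb1* guides 3 of the 47 further interferon-stimulated genes rose, *Tgtp1* by 3.35 (adjusted p = 6.11e-06), *Tgtp2* by 3.13 (adjusted p = 4.62e-05) and *Mov10* by 0.54 (adjusted p = 0.0239), against 2.23% of all genes, and with the Tcf/Lef guides in high CHIR 4 of 41 rose, against 2.05%. *Tgtp1* and *Tgtp2* are near-identical copies, and the other lists given here held no called gene in these 2 comparisons.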

How the data were processed

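Bulk RNA-seq of 36 libraries of mouse NPCs was analysed from 3 deposited tables. RNA of sorted or cultured cells was amplified with the SMARTer Ultra Low kit (12 to 15 PCR cycles, no molecular identifiers) and sequenced as paired 150-base reads. The authors aligned reads with STAR to mouse GRCm38 joined with human GRCh38, counted uniquely aligned reads per gene with featureCounts, used Salmon for isoforms and passed normalized counts to DESeq2. Whether reads were counted by strand is not given in the sources used here. The values are a signal, the normalized counts that the authors made by dividing the reads on each gene by 1 size factor per library, separately in each table. All values came out as whole reads within 0.02 reads once multiplied back. The 8 deposited comparison tables, with the authors' log2 fold changes and p-values, were not used, nor were 50 per-library columns in them.

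Genes with a table mean of at least 10 were tested with limma-trend (limma 3.58.1, R 4.3.3) on log2(normalized count + 1), with all libraries of a table in the fit and two-sided Benjamini-Hochberg adjusted p over all genes tested, for 14 comparisons. EdgeR 4.0.16 and DESeq2 1.42.0 were run on the recovered reads as alternatives. Other alternatives were pseudocounts of 0.5 and 5, no filter, TMM factors, the replicate number as a block, only the groups compared, and each library left out. In the *Ctnnb1* experiments the replicate block was 1 effect shared by the Cre and guide experiments, whose same numbers were not shown to pair. A block within each experiment was added after seeing the data. Same-numbered libraries deviated together in all pairs of groups of the Tcf/Lef table (r 0.214 to 0.637) and within the Cre (r 0.334 to 0.518) and guide experiments (r 0.116 to 0.491). The numbers were therefore taken to pair those libraries, although the labels do not say so. With 2 libraries in each group, the correlations of unlike numbers are those of like numbers with the sign turned. Values were given per library for the 12 members with the largest called change with Cre mRNA and for up to 6 called members of every other comparison. On simulated data with 200 changed genes of 16780, the Cre comparison recovered 85% of genes changed by 2 and 53% of those changed by 1 on the log2 scale, with 7 false calls, and in low CHIR alone 71% and 20%, with 6 false calls. Intervals of read ratios cover counting error only. The list of receptor and signaling genes is not reported here. The members, lists and tests were chosen with earlier results of these data known.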

Additional observations from a re-analysis of the deposited data

Results flagged for a closer look

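The response of *Iigp1* to Cre mRNA differed between low and high CHIR by 5.52 on the log2 scale in a test of the difference itself (limma, adjusted p = 0.0484). The Cre-neg counts were 294 and 667 in low and 1.84 and 22.8 in high CHIR, while the Cre-pos counts were 203 and 144 and 185 and 114. The call was lost without any 1 of 7 of the 8 libraries, with differences of 3.99 to 7.05 over the 8 omissions, all of the same sign.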

How the results depend on the processing

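Counts of members called were recomputed under each alternative, and no count's or named gene's direction turned. A setting can also call more of all genes. With the *Ctnnb1* guides over both doses 2.23% of all genes were called higher in the main test and 3.83% with DESeq2. Where no share of all genes is given for a setting, here or above, its count is not a result about the members. With the replicate number as a block, the count with Cre mRNA in low CHIR went from 4 to 16, the difference of the Cre effect between doses from 1 to 2, the *Ctnnb1* guides over both doses from 0 to 1, Cre minus guide effect from 0 to 10, the GFP guide against no Cre from 4 to 19 (this pairs numbers across the Cre and guide experiments, whose same-numbered libraries correlated at -0.265 to 0.115, so the block has no support there), the Tcf/Lef guides in high CHIR from 3 to 8 and CHIR in GFP guide cells from 7 to 12. The block within each experiment, chosen after seeing the data, gave 23, 2, 3 and 15 for the first 4 of these. For the last 2 of those 4, 5.49% and 0.226% of all genes were called higher. In wild-type cells 4 of 9 same-numbered pairs correlated above 0.1, so the libraries share only a number, and the block gave 3 for no against low and 3 for high against low CHIR. DESeq2 gave 6 for wild-type cells without CHIR (3 in the main test), 7 in high CHIR (2), 17 with Cre in low CHIR, 1 with the *Ctnnb1* guides, 9 for Cre minus guide effect, 18 for the GFP guide against no Cre and 5 with the Tcf/Lef guides in high CHIR. With only the groups compared in the fit, those counts were 6 and 1 in wild-type cells, 2 with Cre in low CHIR, 0 for the dose difference, 1 with the *Ctnnb1* guides and 1 for the GFP guide against no Cre. A pseudocount of 0.5 gave 0 for the dose difference. Leaving out 1 library gave 23 to 31 members with Cre over both doses (31 with all), 0 to 9 in low and 12 to 24 in high CHIR (25 with all), 0 to 1 for the dose difference, 0 to 0 with the *Ctnnb1* guides over both doses and 0 to 2 in high CHIR, 0 to 1 for Cre minus guide effect, 1 to 5 for the GFP guide against no Cre, 1 to 3 with the Tcf/Lef guides in high CHIR, 5 to 10 for CHIR in GFP guide cells, and 1 to 3 and 1 to 6 in wild-type cells. A lone library left in a group is assumed to vary like the other groups. The causes of these shifts were not tested. Over named genes, 348 values under other settings stayed on the same side of the threshold and 21 lost the call, and 190 and 75 with a library left out. In the simulated data 20% of the genes changed by 1 on the log2 scale were recovered at a single dose with 2 libraries a side, and 53% over both doses.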

Other observations

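In 7 of the 8 groups of the *Ctnnb1* experiments, replicate 1 stood above replicate 2 for most of the 38 tested members. The counts were 28, 34, 30, 27, 31, 35 and 28 for the GFP guide in low and high CHIR, the *Ctnnb1* guides in low and high CHIR, Cre-pos in low and high CHIR and Cre-neg in high CHIR. In Cre-neg libraries of low CHIR it was 14. Over all genes tested the share with replicate 1 higher was 48.6% to 57.1%. Replicates of a group have no order, and what the shared number stands for was not tested.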
